A study of Mus musculus with 2 samples.

Results

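Mesothelial cells of the mouse pancreas were described in 2 single-cell libraries, 99 cells of a CP+EVs library and 98 cells of a CP library, or 197 of 22352 deposited cell barcodes. The members were selected on their own counts, and a barcode was taken when it held at least 1000 UMIs (unique molecular identifiers, 1 for each captured RNA molecule) and at most 25% mitochondrial UMIs. It also had to hold at least 4 UMIs, and at least 0.1% of its UMIs, of Msln, Upk3b, Lrrn4, Upk1b and Gpm6a together, and at most 1 UMI of the leukocyte gene Ptprc. Both libraries came from pancreas of Cae-treated mice, captured as single cells on the BD Rhapsody system. The CP+EVs library came from mice that were also given extracellular vesicles, and the CP library from mice given Cae alone. Both libraries carry a label of acute pancreatitis, whereas the title of the series names the chronic disease and vesicles that exercise induces. The labels do not state the strain, age, sex, times, doses or number of animals behind a library.

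Mesothelial cells form the flat, epithelium-like sheet that covers the peritoneal surface of the pancreas and of other abdominal organs. They carry keratins and apical mucins, rest on a thin basement membrane, secrete lubricating glycans and share the transcription factor Wt1 with some mesenchymal cells. During peritoneal and pancreatic inflammation they are known as a source of acute-phase proteins, chemokines and matrix, and they can lose epithelial features and take on mesenchymal ones.

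With 1 library for each treatment no test was possible. Values are CPM, the members' summed UMIs of a gene scaled to a common library total, with exact Poisson 95% intervals, and fold and log2 ratios are CP+EVs over CP unless a gene is said to be lower. Counting error alone enters these intervals, so a difference is one between 2 libraries and not between treatments. The CP+EVs members held 812987 UMIs, with a median of 7173 per cell (1053 to 53822), and the CP members held 996831 UMIs, with a median of 5877 (1020 to 59823). The median cell had 2726 detected genes and 3.04% mitochondrial UMIs in CP+EVs and 2428 genes and 3.84% in CP. Across the libraries 118 barcodes were found in both, among them 2 barcodes of CP+EVs members and 1 of a CP member. The members made up 1.45% of the CP+EVs barcodes that passed the limits on UMIs and mitochondrial RNA (99 of 6849, exact Clopper-Pearson interval 1.18 to 1.76) and 1.16% of those in CP (98 of 8426, 0.945 to 1.42). Among barcodes with at most 1 Ptprc UMI the share was instead lower in CP+EVs, at 2.47% of 4009 barcodes, against 3.49% of 2810 in CP.

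The members were chosen by the counts of the 5 rule genes, so the levels of those genes are a description. The median member held 41 UMIs of them in CP+EVs and 13 in CP, and all 5 were seen in 59 CP+EVs and 31 CP cells. Upk3b, a uroplakin of the apical membrane, stood at 2562 CPM in CP+EVs and 1360.3 CPM in CP. The membrane glycoprotein gene Gpm6a stood at 2394 CPM in CP+EVs and 791 CPM in CP, mesothelin (Msln) at 412 CPM in CP+EVs and 110.3 CPM in CP, Upk1b at 813 CPM in CP+EVs and 613 CPM in CP, and Lrrn4 at 316 CPM in CP+EVs and 456 CPM in CP. Members just inside the rule, with exactly 4 marker UMIs, numbered 3 in CP+EVs and 7 in CP, and 4 CP+EVs and 11 CP barcodes just outside held 3 such UMIs. At shares of 0.1 to 0.15% there were 0 CP+EVs and 12 CP members, and 4 CP+EVs and 13 CP barcodes stood between 0.05 and 0.1%. A further 13 CP+EVs and 35 CP barcodes passed on the 5 genes but held 2 or more Ptprc UMIs and were left out.

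Genes outside the rule also marked the members, given as a description because they were measured in the cells that the rule chose. Among genes of at least 100 CPM in members of both libraries, the 15 with the highest fold over all other kept barcodes, ranked by the lower of the folds in the libraries, stood at least 17.1-fold higher in CP+EVs and at least 17.3-fold higher in CP. Muc16, the apical mucin CA125, stood at 1201 CPM in CP+EVs members against 10.5 CPM in the other barcodes, and at 265 CPM in CP members against 7.57 CPM. The chloride channel gene Ano1 stood at 605 CPM (other barcodes 12.9) in CP+EVs and 268 CPM (6.13) in CP, and the large membrane protein gene Pkhd1l1 at 518 CPM (7.54) in CP+EVs and 511 CPM (16.1) in CP. Lrp2, the endocytic receptor megalin, stood at 232 CPM (2.56) in CP+EVs and 236 CPM (9.74) in CP. The claudins Cldn15 and Cldn10, which seal or gate tight junctions, the growth factor gene Fgf1, and Igfbp5, Nkain4, Gucy1a1, Palmd, Sugct, Wfdc1, Tmem158 and Plxna4 completed the 15. The transcription factor gene Bnc1, under 100 CPM in CP, stood 69.1-fold above the other barcodes in CP+EVs and 21.5-fold in CP, and Wt1 7.42-fold in CP+EVs and 4.03-fold in CP, the fibroblasts of both libraries carrying Wt1 too (123 CPM in CP+EVs and 296 CPM in CP). Calb2, which codes for calretinin, a mesothelial marker in human tissue, and Upk2 had 0 UMIs in the members and 0 CPM over the other kept barcodes of both libraries.

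**Figure D1:**
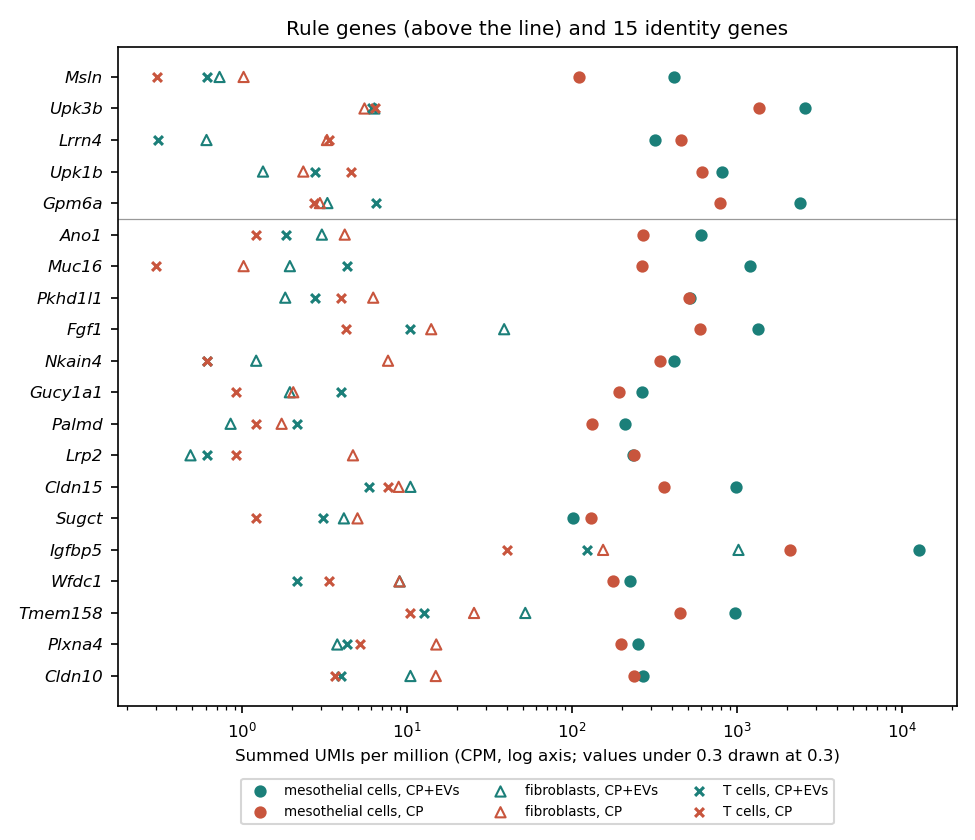
Summed UMIs as CPM (log axis) of the 5 rule genes and the 15 identity genes in CP+EVs and CP members, beside fibroblasts and T cells of each library. Both comparison groups were limited to at most 1 UMI of the rule genes together. Values under 0.3 CPM are drawn at 0.3, and every gene lies to the right in members, with Muc16 at 1201 CPM in CP+EVs and 265 CPM in CP.

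RNA of other cell types was low for most lists. T cell markers summed to 32.0 CPM in CP+EVs members and 23.1 CPM in CP members, against 2437 CPM in CP+EVs T cells and 2386 CPM in CP T cells. Markers of Schwann cells, islet cells, red cells and pericytes each summed to at most 16.0 CPM in CP+EVs and 15.05 CPM in CP, and Sox10 was at 0 in both. Of 6 endothelial markers, Cdh5, Egfl7 and Emcn were at 0 in CP+EVs. B cell markers summed to 64.0 CPM in CP+EVs and 28.1 CPM in CP. Kdr, the VEGF receptor, stood at 332 CPM in CP+EVs and 135 CPM in CP, in 66 CP+EVs and 34 CP cells, against 75.6 CPM in CP+EVs T cells and 3.96 CPM in CP T cells. In CP, Cdh5 and Flt1 came from 1 cell, as did 76.0% of the Pecam1 UMIs. Ductal markers summed to 68.9 CPM in CP+EVs and 57.2 CPM in CP.

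Acinar markers summed to 12168 CPM in CP+EVs members and 66.2 CPM in CP members, below the 25069 CPM in CP+EVs and 546 CPM in CP seen in T cells, which do not make these enzymes. Neutrophil markers summed to 19.7 CPM in CP+EVs and 705 CPM in CP, again below the T cells (25.2 CPM in CP+EVs, 1623 CPM in CP), and macrophage markers to 437 CPM in CP+EVs and 941 CPM in CP (T cells 2610 CPM in CP+EVs and 2602 CPM in CP). The T cell sums include single barcodes rich in these markers, up to 27.4% acinar markers in CP+EVs and 16.5% acinar and 8.77% neutrophil markers in CP. Fibroblasts held 8847 CPM of acinar markers in CP+EVs and 39.9 CPM in CP, below the members. They held 17.9 CPM of neutrophil markers in CP+EVs, below the members, and 769 CPM in CP, above them. Per CP cell, the median neutrophil marker share was 0.0751% in members and 0.0646% in T cells. In CP+EVs the median acinar marker share was 0.768% in members and 0.787% in T cells. Genes of these cells are read as background here and below, but a sum below T cells is a rough guide and was not tested. It gives no background level for a gene that T cells make themselves. Which of the genes compared with T cells below are of that kind was not tested. Fibroblast markers summed to 12020 CPM in CP+EVs members and 25158 CPM in CP members, above T cells (3008 CPM in CP+EVs, 7555 CPM in CP) and below fibroblasts taken by those markers (32693 CPM in CP+EVs and 52412 CPM in CP). Per cell, these markers took a median of 1.11% of UMIs in CP+EVs members and 2.28% in CP members. The CP median lies above the 2% used to gate fibroblasts, a group also limited to at most 1 UMI of the rule genes together. Many CP members therefore pass that percent limit and may be mixed or fibroblast-like cells. Of these 6 markers none was at 0 in either library, and their part in the matrix and other results below was not tested. Doublets were not removed, so mixed cells may be among the members.

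Rule genes, which chose the cells, took a median of 0.610% of a cell's UMIs in CP+EVs (0.183 to 1.28) and 0.336% in CP (0.101 to 1.01). Muc16 took a median of 0.106% in CP+EVs, with 13 cells at 0, and 0% in CP, with 56 cells at 0. Igfbp5, which binds insulin-like growth factors, took a median of 0.974% in CP+EVs (0 to 4.63) and 0.0346% in CP (0 to 2.94), with 3 CP+EVs and 37 CP cells at 0. As a description of cells of 1 library, split by the same genes that chose them, the CP members were divided at the median share of rule genes. Igfbp5 stood at 3759 CPM in the upper 49 cells and 438 CPM in the lower 49, and Muc16 at 487 CPM in the upper and 45.8 CPM in the lower cells. The chemokine gene Cxcl5 went the other way, with 99.03 CPM in the upper and 701 CPM in the lower cells. Saa3 and Timp1 also stood lower in the upper cells (6627 against 8943 CPM, and 746 against 1444 CPM).

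Collagens I and III took a larger share of the UMIs of CP members, with overlapping ranges. Their share had a median of 0.395% of a cell's UMIs in CP+EVs members (0.0460 to 1.47) and 2.06% in CP members (0.170 to 6.03), and more than 1% in 8 CP+EVs and 84 CP cells. The same genes took medians of 1.68% in CP+EVs and 4.53% in CP fibroblasts, and 0.0532% in CP+EVs and 0.199% in CP T cells, which do not make these collagens. Members lay between T cells and fibroblasts in each library, and the median was lower in CP+EVs in all 3 groups of cells. Col1a1 and Col3a1 are among the markers that gated the fibroblasts, so the higher share in fibroblasts follows at least in part from that choice.

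**Figure D2:**
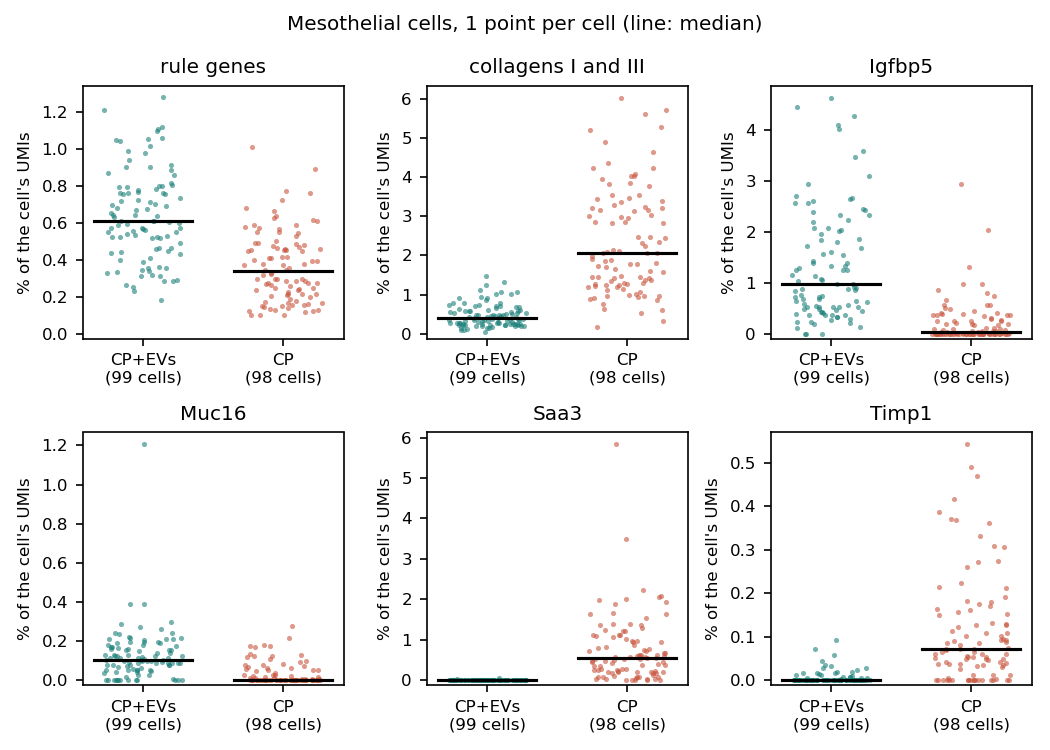
Share of each cell's UMIs, in percent, taken by the rule genes, collagens I and III, Igfbp5, Muc16, Saa3 and Timp1 in CP+EVs and CP mesothelial members, with 1 point for each cell and a line at the median. Collagens have medians of 0.395% in CP+EVs and 2.06% in CP, and Saa3 is at 0 in 95 CP+EVs cells and 2 CP cells.

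Genes were called measured when they reached 20 CPM in 1 library and 20 UMIs in all, which left 7298 genes. In CP+EVs, 597 of them were higher by 2-fold or more (8.18%) and 661 were lower by 2-fold or more (9.06%), and the median log2 ratio was -0.01. In all counts of list members that follow, higher and lower mean a ratio of 2-fold or more. The shares of 8.18% and 9.06% over all measured genes are the level against which each such count stands. Genes were ranked by ratio if they reached 100 CPM in either library and 100 UMIs over both, and if members of the higher library were not below the mean of all its kept barcodes, which leaves out genes such as Il1b and the neutrophil markers. Among these the highest ratios were those of Plet1, a surface protein of epithelial progenitors, Fmo2, a flavin monooxygenase, and Spock2, a secreted proteoglycan. Plet1 stood at 148 CPM (122 to 176) in CP+EVs and 10.03 CPM (4.81 to 18.4) in CP, Fmo2 at 854 CPM (791 to 919.6) in CP+EVs and 76.2 CPM (60.1 to 95.4) in CP, and Spock2 at 642 CPM (588 to 699.6) in CP+EVs and 60.2 CPM (45.9 to 77.5) in CP. The glucocorticoid-responsive gene Tsc22d3 was 10.8-fold higher (6.86 to 17.9), with 228 CPM in CP+EVs and 21.1 CPM in CP, and in fibroblasts its log2 ratio was 2.25.

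Next in rank among them, Lmo7, an actin-linked protein of cell junctions, was 8.08-fold higher (4.83 to 14.4), Slc39a8, a zinc and manganese transporter, 6.98-fold (5.96 to 8.22), and the water channel Aqp1 6.28-fold (4.07 to 10.1). Slc39a8 stood at 1274 CPM in CP+EVs members and 183 CPM in CP members, against 10.2 CPM in CP+EVs fibroblasts and 8.26 CPM in CP fibroblasts. Ppfibp2 was 8.01-fold higher in members, while its log2 ratio in fibroblasts was -0.34. Tmtc1, Igfbp5, Ltbp4, which binds latent TGF-beta, and Arhgap18 had ratios between 6.02-fold and 6.17-fold, and the log2 ratio in fibroblasts was 2.72 for Igfbp5 and 2.64 for Ltbp4.

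Among the genes with the lowest ratios, Cxcl5, an attractant of neutrophils, had 0 UMIs in CP+EVs members and 401 in CP members. It was at least 109-fold lower against a floor of 3 UMIs, and its log2 ratio in fibroblasts was -4.28. The protease inhibitor Serpinb2 had 0 UMIs in CP+EVs and 266 UMIs in CP, with 56.4% of the CP UMIs in 1 cell. It was 72.3-fold lower against the same floor, with an interval that ended at -5.87. Cxcl13, the B cell attractant, had 1 UMI in CP+EVs and 209 UMIs in CP, with 91.4% in 1 CP cell. Timp1, an inhibitor of metalloproteinases, stood at 52.9 CPM (38.3 to 71.2) in CP+EVs and 1097 CPM (1033 to 1164) in CP, in 25 CP+EVs and 80 CP cells. Its log2 ratio in fibroblasts was -4.06. Among members with under 1% fibroblast marker UMIs, 41 in CP+EVs and 4 in CP, the log2 ratio of Timp1 was -0.83 instead of -4.36. Vcam1, an adhesion molecule for leukocytes, stood at 14.8 CPM (7.63 to 25.8) in CP+EVs and 168 CPM (143 to 195) in CP, in 10 CP+EVs and 50 CP cells, and its log2 ratio was -0.71 among the same few cells and -3.45 among all members. The 4 CP cells with under 1% fibroblast marker UMIs held 15884, 10589, 1839 and 1036 UMIs, and the cell with 10589 had 0 UMIs of Upk3b. The CP values there are therefore mainly those of 2 cells.

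Cyp1b1, a cytochrome of retinoid and steroid metabolism, was 14.2-fold lower (9.48 to 22.2) in CP+EVs members, at 30.8 CPM in CP+EVs against 436 CPM in CP, while its log2 ratio in fibroblasts was -0.18. Igfbp3 was 12.8-fold lower (6.95 to 26.03), with 50% of its CP UMIs in 1 cell and a log2 ratio of -2.97 without the top cells, and its log2 ratio in fibroblasts was 1.08. Dram1, Adamts9, Lcn2 and Serpina3n completed the list, between 8.03-fold and 11.04-fold lower. Differences between members and fibroblasts were not tested, because each rests on the same pair of libraries.

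**Figure D3:**
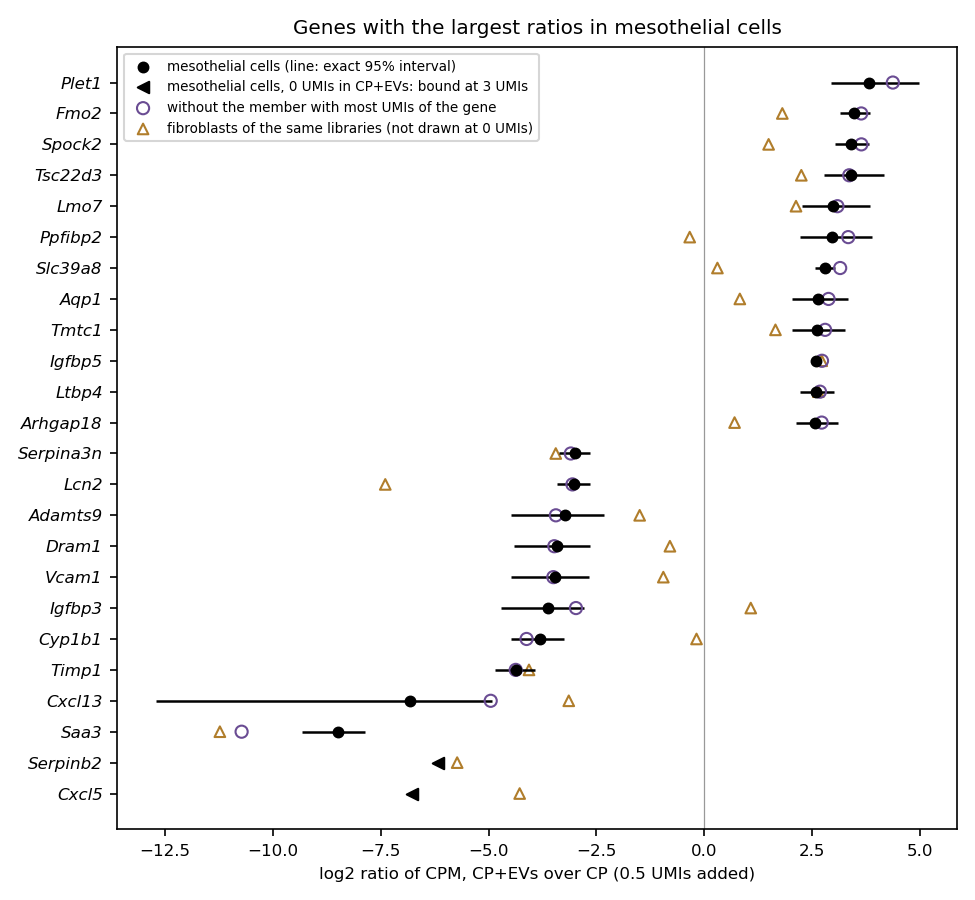
Log2 ratios of CPM, CP+EVs over CP, of the 12 highest and 12 lowest mesothelial genes by ratio that had at least 100 CPM and 100 UMIs and were not below the level of their library, with exact 95% intervals, beside the value without the member that holds most UMIs of the gene and the value in fibroblasts. Cxcl5 and Serpinb2, at 0 UMIs in CP+EVs, are drawn at their bound, and Cyp1b1 and Igfbp3 lie far from their fibroblast values.

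Most acute-phase genes were lower in CP+EVs. Of 15 measured members of the list, 0 were higher and 10 lower, with a median log2 ratio of -2.35 against -0.01 over all measured genes. In fibroblasts the median of the same genes was -1.99. Saa3, a serum amyloid A protein made outside the liver, had 17 UMIs in CP+EVs members, or 20.9 CPM (12.2 to 33.5), and 7769 UMIs in CP members, or 7794 CPM (7621 to 7969), and was 373-fold lower (233 to 640.1). It was seen in 4 of 99 CP+EVs cells, 1 of which held 82.4% of its UMIs, and in 96 of 98 CP cells. After each cell was thinned to 1000 UMIs, Saa3 was found in 0% of CP+EVs members (up to 3.66) and 89.8% of CP members, against 0.2% of CP+EVs T cells and 21.2% of CP T cells. In CP it stood at 7794 CPM in members, 2484 CPM in fibroblasts and 509 CPM in T cells. In CP+EVs fibroblasts it stood at 0.973 CPM, and its log2 ratio in fibroblasts was -11.23. Without the top cells its log2 ratio in members was -10.73 instead of -8.50.

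Lcn2, the iron-binding lipocalin, stood at 78.7 CPM (60.6 to 101) in CP+EVs members and 641 CPM (592 to 693) in CP members, and was 8.14-fold lower (6.29 to 10.7). Its log2 ratio was -3.02 in members and -7.40 in fibroblasts, and the difference was not tested. Lcn2 stood at 2.46 CPM in CP+EVs T cells and 257 CPM in CP T cells. Over all other kept barcodes it stood at 12.6 CPM in CP+EVs and 603 CPM in CP, and CP fibroblasts held 604 CPM. The CP members were thus close to the level of their library. Serpina3n, a protease inhibitor, was 8.03-fold lower (6.30 to 10.4), with 88.6 CPM in CP+EVs and 711 CPM in CP. In CP, T cells held 286 CPM of it, all other kept barcodes 668 CPM and fibroblasts 1763 CPM. Ceruloplasmin (Cp), a copper-carrying ferroxidase, was 6.63-fold lower (5.44 to 8.16), with 137 CPM (112 to 164) in CP+EVs and 906 CPM (848 to 967) in CP, above the 124 CPM of CP T cells. Slpi, an inhibitor of neutrophil elastase, was higher, at 2827 CPM (2712 to 2945) in CP+EVs and 1754 CPM (1672 to 1838) in CP, a log2 ratio of 0.69, while its log2 ratio in fibroblasts was -1.99. The metal-binding metallothioneins Mt1 and Mt2 had log2 ratios of 0.03 and 0.10.

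The 250 bases before the transcription start of Saa3 and Lcn2 are shown because these genes had large differences in members and are textbook targets of inflammatory transcription factors. They are from RefSeq on GRCm38.p6 (mm10), given on the minus strand at chr7:46715677-46715926 for Saa3 and chr2:32387740-32387989 for Lcn2. Capitals mark matches to a form of the NF-kB site, 3 G followed by any 5 bases and 2 C, and to TTGCNNAA, a form of the C/EBP site, both searched on both strands.
Saa3: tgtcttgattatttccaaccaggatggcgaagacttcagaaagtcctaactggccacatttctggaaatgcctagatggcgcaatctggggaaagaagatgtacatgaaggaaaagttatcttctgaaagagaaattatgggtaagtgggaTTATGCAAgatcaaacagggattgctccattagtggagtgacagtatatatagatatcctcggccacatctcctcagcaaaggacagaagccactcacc
Lcn2: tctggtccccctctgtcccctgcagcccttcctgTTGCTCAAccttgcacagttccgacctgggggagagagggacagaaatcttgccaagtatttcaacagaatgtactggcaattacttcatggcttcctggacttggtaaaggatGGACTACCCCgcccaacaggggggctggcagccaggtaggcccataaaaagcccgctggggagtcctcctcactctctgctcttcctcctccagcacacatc
The Saa3 window held 0 matches to the NF-kB form and 1 to the C/EBP form, and the Lcn2 window 1 of each. Of 32851 mouse promoters of this length, 15046 (45.8%) held the NF-kB form and 3142 (9.56%) the C/EBP form. A match describes letters only and no binding was measured. Cxcl5 was not matched in the promoter table.

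Most complement genes differed by less than 2-fold, as did most measured genes. Of 12 measured members, 1 was higher and 2 lower, with a median log2 ratio of 0.60, against -0.001 in fibroblasts. Over all measured genes 8.18% were higher and 9.06% lower. C3, the central component, stood at 7832 CPM (7640.4 to 8026) in CP+EVs and 4832 CPM (4697 to 4971) in CP and was found in 99 CP+EVs and 97 CP cells. C2, which forms the classical C3 convertase, was 2.36-fold higher (2.09 to 2.66), and the C1 inhibitor Serping1 and the protease C1ra were 1.496-fold and 1.54-fold higher. C1s1 had a log2 ratio of -0.33. The lowest member, the anaphylatoxin receptor C5ar1 (1.23 CPM in CP+EVs and 55.2 CPM in CP), lay below T cells (7.07 CPM in CP+EVs, 128 CPM in CP), so it is read as background. Cfp was also below them (14.8 CPM in CP+EVs and 33.1 CPM in CP against 93.5 CPM in CP+EVs T cells and 104 CPM in CP T cells).

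Chemokines were lower in CP+EVs for 10 of 17 measured members and higher for 1. Their median log2 ratio was -1.16, against -1.37 in fibroblasts. Beside Cxcl5 and Cxcl13, the monocyte attractant Ccl2 stood at 62.7 CPM (46.7 to 82.5) in CP+EVs and 313 CPM (279 to 349.7) in CP, in 14 CP+EVs and 43 CP cells. Ccl7, a related attractant, stood at 43.1 CPM in CP+EVs and 114 CPM in CP. Ccl24, an eosinophil attractant, had 0 UMIs in CP+EVs and 37 UMIs in CP and was at least 10.1-fold lower. The neutrophil attractant Cxcl1 had log2 ratio 0.22, with 856 CPM (794 to 922) in CP+EVs and 734 CPM (682 to 789.5) in CP, while in fibroblasts its log2 ratio was -1.13. Cxcl16, a membrane-bound ligand of Cxcr6, stood at 81.2 CPM in CP+EVs and 117 CPM in CP, above T cells (10.1 CPM in CP+EVs, 17.4 CPM in CP). Cxcl12 (6.15 CPM in CP+EVs and 51.2 CPM in CP) and Ccl3 (1.23 CPM in CP+EVs and 27.1 CPM in CP) were below the T cell level in both libraries. Ccl11, the only higher member of this list, was also below it in CP+EVs, with 51.7 CPM in members against 60.9 CPM in T cells.

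Cytokine genes were low and differed both ways, with 2 of 15 measured members higher and 6 lower. Their median log2 ratio was -0.22, against -0.56 in fibroblasts. Il33, an alarmin kept in the nucleus, stood at 221 CPM (190.2 to 256) in CP+EVs and 448 CPM (408 to 492) in CP and was 2.03-fold lower (1.70 to 2.42). Il7, a lymphocyte survival factor, stood at 89.8 CPM (70.4 to 113) in CP+EVs and 29.1 CPM (19.5 to 41.8) in CP and was 3.09-fold higher (1.98 to 4.92), and its log2 ratio in fibroblasts was -0.14. Kitl, the stem cell factor of mast cells, was 2.23-fold higher (1.72 to 2.90). Il18 stood at 127 CPM in CP+EVs and 104 CPM in CP and Csf1, the macrophage growth factor, at 219 CPM in CP+EVs and 216 CPM in CP. Il1b (18.5 CPM in CP+EVs and 159.5 CPM in CP) and Il6 (56.6 CPM in CP+EVs and 59.2 CPM in CP) lay below T cells in both libraries. Tnf stood at 1.23 CPM in CP+EVs and 20.1 CPM in CP, and T cells, which make it themselves, give no background level for it.

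Among 26 measured cytokine receptors, 3 were higher and 5 lower, with a median log2 ratio of -0.37. Il18r1, the interleukin 18 receptor, stood at 234 CPM (202 to 269) in CP+EVs and 57.2 CPM (43.3 to 74.1) in CP, in 60 CP+EVs and 25 CP cells, though T cells carry it as well (188 CPM in CP+EVs and 233 CPM in CP). Il1r1, the interleukin 1 receptor, was lower, at 43.1 CPM (29.99 to 59.9) in CP+EVs and 203 CPM (176 to 233) in CP, below T cells in CP+EVs (55.0 CPM) and above them in CP (75.6 CPM). The shared receptor chain Il6st stood at 561 CPM in CP+EVs and 424 CPM in CP and the oncostatin M receptor Osmr at 121 CPM in CP+EVs and 212 CPM in CP.

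Matrix genes differed both ways. Of 41 measured fibrillar and matrix genes, 7 were higher and 14 lower in CP+EVs, with a median log2 ratio of -0.68, against 0.16 for the same genes in fibroblasts. Col1a1, Col3a1 and Dcn of this list are among the markers that gated the fibroblasts, so the fibroblast median is a description. Among the members with under 1% fibroblast marker UMIs, 4 of them in CP, the median in members was -0.24. Col3a1 stood at 2076 CPM (1978 to 2178) in CP+EVs and 12396 CPM (12179 to 12617) in CP and was 5.97-fold lower (5.67 to 6.29), and Col1a1 and Col1a2 were 5.69-fold and 4.85-fold lower. The matrix-binding protein Sparc was 3.86-fold lower, the large proteoglycan Vcan 7.39-fold (5.12 to 11.01) and the adhesive glycoprotein Thbs1 5.27-fold (4.35 to 6.44). T cells held 903 CPM of Col3a1 in CP+EVs and 4036 CPM in CP. For Thbs1 they held 199 CPM in CP+EVs, above the 150.1 CPM of members, and 622 CPM in CP, below the 792 CPM of members.

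Some matrix genes were higher in CP+EVs. Decorin (Dcn), a small proteoglycan, stood at 8774 CPM (8571 to 8979.8) in CP+EVs and 6791 CPM (6629.7 to 6954) in CP and was seen in every member. Efemp1, an elastic fibre protein, was 2.19-fold higher (2.01 to 2.38), the collagen-binding proteoglycan Fmod 3.48-fold (2.55 to 4.81), Fbln1 2.13-fold and Col14a1 3.002-fold (2.45 to 3.69). Fmod stood at 196 CPM in CP+EVs members and 56.2 CPM in CP members, against 10.2 CPM in CP+EVs fibroblasts and 6.02 CPM in CP fibroblasts. Sparcl1 had the highest ratio of the list at 70.1 CPM in CP+EVs against 6.02 CPM in CP. Of its CP+EVs UMIs 64.9% came from 1 cell, and CP+EVs T cells held 139.6 CPM. Without the top cells the log2 ratio of Sparcl1 was 2.21. Smoc2 followed with 157 CPM in CP+EVs and 25.1 CPM in CP, above the T cells (65.8 CPM in CP+EVs, 12.8 CPM in CP).

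Basement membrane genes were more often higher than lower, with 7 of 23 measured members higher and 1 lower. Their median log2 ratio was 0.41, against 0.99 in fibroblasts. Fras1, a basement membrane protein of epithelia, stood at 113 CPM (91.2 to 139) in CP+EVs and 71.2 CPM (55.6 to 89.8) in CP, against 4.13 CPM in CP+EVs fibroblasts and 2.04 CPM in CP fibroblasts. Col4a4, a minor collagen IV chain, was 4.62-fold higher (2.47 to 9.29) and Col4a6, another, 2.08-fold lower (1.32 to 3.38). Itga3, a laminin-binding integrin, was 2.45-fold higher (1.58 to 3.87). Lama2 had the highest ratio with 39.4 CPM in CP+EVs and 5.02 CPM in CP, below the T cells of CP+EVs (48.3 CPM). Nidogen 1 (Nid1) stood at 344 CPM in CP+EVs and 312 CPM in CP, and 30% of its CP+EVs UMIs came from 1 cell. Its log2 ratio of 0.14 was -0.31 without the top cells.

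Proteases and their inhibitors were higher for 0 and lower for 11 of 31 measured members, with a median log2 ratio of -0.59. Beside Timp1 and Serpinb2, Adamts9, a metalloproteinase, was 9.88-fold lower (5.02 to 22.2). Timp3 was 3.14-fold lower (2.26 to 4.44), with 56.6 CPM in CP+EVs and 178 CPM in CP, while fibroblasts went the other way with 165 CPM in CP+EVs and 22.6 CPM in CP. Timp2 stood at 2946 CPM (2829 to 3066) in CP+EVs and 1527 CPM (1451 to 1606) in CP, and the thrombin receptor thrombomodulin (Thbd) at 562 CPM in CP+EVs and 394 CPM in CP. Mmp9, at 0 CPM in CP+EVs and 37.1 CPM in CP, lay below the T cells (8.92 CPM in CP+EVs, 98.4 CPM in CP).

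Among epithelial genes more were higher than lower in CP+EVs. Of 20 measured keratins and junction genes, 7 were higher and 1 lower, with a median log2 ratio of 0.65, against 0.53 in fibroblasts. Of 38 measured identity genes outside the rule, 17 were higher and 2 lower, with a median of 0.71, against 0.05 in fibroblasts. The rule chose cells by genes of the same kind, and CP+EVs members held more UMIs of those, so this count is a description. Keratin 19 (Krt19) stood at 257 CPM (223 to 294) in CP+EVs and 91.3 CPM (73.5 to 112) in CP and was 2.82-fold higher (2.19 to 3.64). Krt7 was 2.03-fold higher (1.51 to 2.76), and Krt18 stood at 268 CPM in CP+EVs and 82.3 CPM in CP, with 42.7 CPM in CP+EVs T cells and 3.35 CPM in CP T cells. Perp, a desmosome protein, stood at 80.0 CPM in CP+EVs and 19.1 CPM in CP, and the junctional claudin Cldn15 at 975 CPM in CP+EVs and 361 CPM in CP. Cxadr, an adhesion protein of tight junctions, was 2.66-fold lower (2.26 to 3.15), at 231 CPM in CP+EVs against 616 CPM in CP. Epcam and Cdh1, adhesion genes of gland epithelia, lay below T cells, Epcam with 7.38 CPM in CP+EVs and 2.01 CPM in CP and Cdh1 with 6.15 CPM in CP+EVs and 0 CPM in CP. The mesenchymal cadherin Cdh11 stood at 392 CPM in CP+EVs and 593 CPM in CP.

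Of 17 measured transcription factors of mesothelium, 3 were higher and 0 lower, with a median log2 ratio of 0.37. Wt1 stood at 369 CPM (328 to 413) in CP+EVs and 539.7 CPM (495 to 587) in CP and Gata6 at 273 CPM in CP+EVs and 331 CPM in CP. Isl1, which marks pancreatic mesenchyme in the embryo, was 2.54-fold higher (1.89 to 3.46) and Sox6 2.21-fold (1.61 to 3.07).

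On the cell surface, 2 of 13 measured hyaluronan and surface genes were higher and 6 lower, with a median log2 ratio of -0.84. Higher were Muc16 (4.53-fold, 3.95 to 5.21) and the heparan sulfate proteoglycan Gpc3 (3.75-fold, 3.22 to 4.38). Lower were Cd44, the hyaluronan receptor (52.9 CPM in CP+EVs and 397 CPM in CP), the syndecan Sdc4 (547 CPM in CP+EVs and 1241 CPM in CP), and Prg4, the lubricant lubricin (139 CPM in CP+EVs and 372 CPM in CP). Has1, a hyaluronan synthase, stood at 257 CPM in CP+EVs and 169 CPM in CP, and Has2 at 6.15 CPM in CP+EVs and 24.1 CPM in CP, with 91.7% of its CP UMIs in 1 cell. T cells held 7.07 CPM of Has2 in CP+EVs and 27.1 CPM in CP, above the members. Podoplanin (Pdpn) stood at 520.3 CPM in CP+EVs and 663 CPM in CP.

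Mesenchymal transition genes were higher for 2 and lower for 10 of 22 measured members, with a median log2 ratio of -0.82. Vimentin (Vim) stood at 2889 CPM in CP+EVs and 4981 CPM in CP. The transcription factor Twist1 stood at 6.15 CPM (1.997 to 14.4) in CP+EVs and 35.1 CPM (24.5 to 48.8) in CP, and Itga5, a fibronectin receptor, at 19.7 CPM in CP+EVs and 95.3 CPM in CP. S100a4, at 68.9 CPM in CP+EVs and 407 CPM in CP, was below the T cells in both libraries (482 CPM in CP+EVs and 722 CPM in CP). Smooth muscle actin, Acta2, stood at 33.2 CPM (21.9 to 48.3) in CP+EVs and 81.3 CPM (64.5 to 101) in CP, in 14 CP+EVs and 30 CP cells, and Tagln had 1 UMI in CP+EVs and 3 UMIs in CP.

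Growth factor and Wnt genes were higher for 10 and lower for 6 of 38 measured members, with a median log2 ratio of 0.22. Fgf1 stood at 1335 CPM (1256 to 1416) in CP+EVs and 593 CPM (546 to 643) in CP, and Fgf9, which signals from mesothelium to mesenchyme in the embryo, at 50.4 CPM (36.2 to 68.4) in CP+EVs and 7.02 CPM (2.82 to 14.5) in CP. Rspo1, an enhancer of Wnt signals, was 2.30-fold higher (1.97 to 2.69), and its log2 ratio in fibroblasts was -0.40. Wnt4 went the other way at 29.5 CPM in CP+EVs and 83.3 CPM in CP. Gas6, a ligand of Axl and Mertk, was 2.57-fold higher (2.22 to 2.97), and Igfbp6 2.53-fold (2.32 to 2.76). Igf1 stood at 99.6 CPM in CP+EVs and 400.3 CPM in CP, with 63.3 CPM in CP+EVs T cells and 289 CPM in CP T cells.

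Retinoic acid synthesis is a known trait of mesothelium. Its enzyme gene Aldh1a2 stood at 502 CPM (454 to 553) in CP+EVs and 516 CPM (472 to 562) in CP and Aldh1a1 at 693 CPM in CP+EVs and 495 CPM in CP, while in fibroblasts Aldh1a2 had a log2 ratio of -1.07. Of 9 measured retinoid genes, 1 was higher, Rarres2, which codes for the attractant chemerin (2.93-fold, 2.04 to 4.26), and 1 lower, the retinol dehydrogenase Rdh10 (4.54-fold, 3.41 to 6.15). Their median log2 ratio was -0.04, and over all measured genes 8.18% were higher and 9.06% lower.

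Prostanoid genes were higher for 0 and lower for 6 of 10 measured members, with a median log2 ratio of -1.12, against -0.17 in fibroblasts. Ptgis, the prostacyclin synthase, stood at 824 CPM (763 to 889) in CP+EVs and 1764 CPM (1682 to 1848) in CP and was 2.14-fold lower (1.96 to 2.34). The prostaglandin E receptor Ptger3 was 4.57-fold lower (2.92 to 7.47), with 28.3 CPM in CP+EVs and 129 CPM in CP, against 5.23 CPM in CP+EVs T cells and 3.05 CPM in CP T cells. The inducible cyclooxygenase Ptgs2 (36.9 CPM in CP+EVs and 177 CPM in CP) lay below the T cells (69.8 CPM in CP+EVs, 248 CPM in CP), and Ptgs1 stood at 207 CPM in CP+EVs and 284 CPM in CP.

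**Figure D4:**
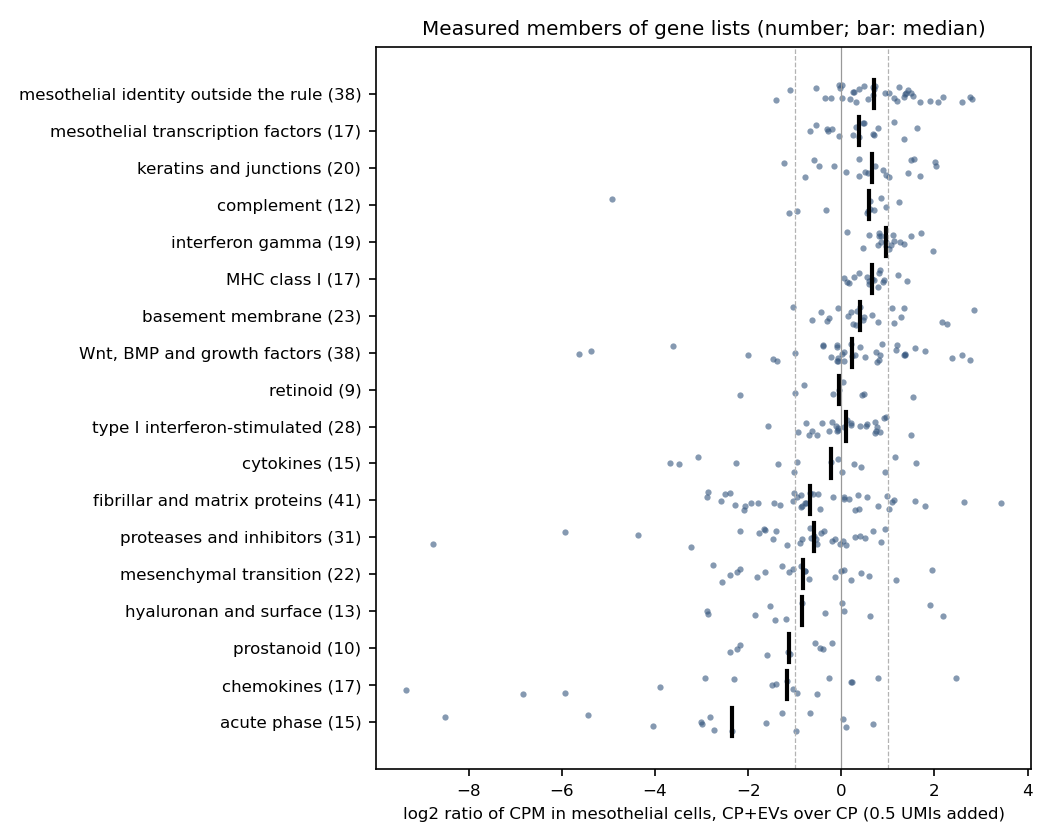
Log2 ratios of CPM, CP+EVs over CP, of the measured members of each gene list in mesothelial cells, with 1 point for each gene and a bar at the median. Acute-phase genes have a median of -2.35 and chemokines of -1.16, while keratins and junctions have a median of 0.65 and identity genes outside the rule of 0.71.

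Genes of the cell cycle were higher for 0 and lower for 8 of 16 measured members, with a median log2 ratio of -1.02. Of the members, 0 in CP+EVs and 8 in CP held at least 10 UMIs and at least 0.3% of UMIs from this list. Of 19 measured genes of the interferon gamma list 9 were higher and 0 lower (median log2 ratio 0.96, against 0.84 in fibroblasts). Of 28 measured genes of the type I list 1 was higher and 1 lower (median 0.09, against -0.20 in fibroblasts). The shares over all measured genes were 8.18% higher and 9.06% lower. Sting1, the sensor adaptor named in the series title, stood at 30.8 CPM (19.9 to 45.4) in CP+EVs and 93.3 CPM (75.3 to 114) in CP, below the T cells of CP+EVs (51.7 CPM) and above those of CP (70.7 CPM).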

How the data were processed

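Cells of mouse pancreas were captured with BD Rhapsody and read as pairs of 150 bp, per the labels' protocols. Raw UMI counts of 31253 genes were deposited by the authors, without normalization, per the file headers. The submitters' processing notes name CASAVA 1.8, UMI-tools, Seurat and mm10 without roles. For the aligner and the calling of cells, none is given in the sources used here. Every deposited barcode held at least 501 UMIs. Positions came from GENCODE vM21, which held 31184 of the identifiers, and for 43 repeated symbols the entry with most UMIs was used.

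UMIs were summed over the members of each library, with Python 3.11.15, numpy 2.4.6, scipy 1.17.1 and pandas 2.3.3. Log2 ratios have 0.5 UMIs added to each sum. For a gene at 0 the fold is given against 3 UMIs in that library, which is not an exact limit. Fibroblasts were taken as barcodes with at least 10 UMIs and 2% of UMIs of 6 markers (1181 in CP+EVs, 1345 in CP), and T cells by 3 UMIs of their markers (614 and 638, with median depths of 3899.5 and 3495.5 UMIs). Both groups were also limited to at most 1 UMI of the rule genes together, which left out barcodes with more RNA of those genes. Levels of mesothelial genes in both groups are therefore a description. The effect of this limit on the fibroblast levels of Slc39a8, Fmod and Fras1 was not tested. These gates were chosen after the members were seen. Shares of cells used counts thinned to 1000 UMIs. No doublet caller was run.

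The members and the 37 lists were chosen with earlier results of these data known, and no pattern that those already showed is independent support. Named genes are the 15 identity genes with at least 100 CPM in both libraries and the highest fold over other barcodes, the 12 highest and 12 lowest ratios at 100 CPM and 100 UMIs, in genes whose CPM in members of the higher library is at least that over all its kept barcodes, without acinar, Reg, mitochondrial, ribosomal, haemoglobin, immunoglobulin, Gm and Rik genes, and list members of high level, large ratio or described role. Kdr and the genes named for comparison with T cells were chosen after their values were seen. The ratio and interval steps were run on simulated Poisson sums without variation between cells. That checks the computation and cannot show how well the intervals cover real sums, which can rest on few cells. Alternatives covered scaling, weight of cells, depth, filters and the rule for members. Some results are not reported here.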

Additional observations from a re-analysis of the deposited data

How the results depend on the processing

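The alternatives were run on the rule genes, the ranked genes, 8 list medians, the counts and the share, and not on the other genes and lists. Among those genes and medians, no log2 ratio beyond 1 in size changed sign. The log2 ratio of the share of members was 0.31, and it was 0.98 with at least 8 marker UMIs and 0.2%, -0.50 among barcodes with at most 1 Ptprc UMI, and 3.66 among cells with under 1% fibroblast marker UMIs, which left 41 CP+EVs and 4 CP members. Those cells moved the median log2 ratios to -3.86 for acute phase, 0.97 for complement, 1.38 for keratins and junctions and 2.08 for identity genes outside the rule, and the matrix median to -0.24. There Timp1 (-0.83, against -4.36) and Vcam1 (-0.71, against -3.45) were no longer 2-fold lower, Igfbp3 stood at -1.06 (against -3.61) and Fmo2 at 1.10 (against 3.48). The 4 CP cells behind all these values held 15884, 10589, 1839 and 1036 UMIs, so the CP side is mainly that of 2 cells. The chemokine median was -0.79 with at least 8 marker UMIs and 0.2%. The cytokine median was -0.88 with the mean of per-cell CPM. Genes at least 2-fold higher and lower numbered 215 and 192 in cells thinned to 1000 UMIs, 188 and 180 at 100 CPM and 100 UMIs, and 1311 and 1431 with no minimum CPM and 5 UMIs, since fewer or more genes were measured. Where no cause is given, it was not tested. Of the other values tried for single genes, 93 moved beyond their counting interval and 509 did not. Leaving out members over 5% acinar marker UMIs (6 in CP+EVs, 0 in CP), shared barcodes, or members with under 4 of the 5 rule genes seen was chosen after seeing the data.

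No paired analysis was possible because each treatment has 1 library and nothing in the labels pairs them. Depth limits genes under 20 UMIs in all, and with 1 library per treatment the spread between animals is unknown.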

Other observations

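Genes of protein folding in the endoplasmic reticulum had 1 of 23 measured members higher in CP+EVs by 2-fold or more, 8 lower and a median log2 ratio of -0.72, against -0.86 in fibroblasts. Pdia4, a disulfide isomerase, stood at 135 CPM in CP+EVs and 395 CPM in CP and was 2.92-fold lower (2.36 to 3.64). The chaperone Hspa5, also called BiP, stood at 2055 CPM in CP+EVs and 3207 CPM in CP, and Dnajb11, its cofactor, was 3.58-fold lower (2.36 to 5.61). Glycolysis and hypoxia genes had 2 of 17 measured members higher and 4 lower, with a median log2 ratio of -0.59. Of these, Ldha (122 CPM in CP+EVs and 314 CPM in CP) lay below T cells in both libraries, while Ndrg1, a gene induced by low oxygen, was 2.82-fold higher (2.03 to 3.97).

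Immediate early and heat shock genes had 2 of 31 measured members higher and 2 lower, with a median log2 ratio of 0.18. The shares over all measured genes were 8.18% higher and 9.06% lower. Egr1 stood at 5758 CPM in CP+EVs and 2814 CPM in CP, and Klf2, a transcription factor, was 2.23-fold higher (1.99 to 2.51). MHC class II genes summed to 4811 CPM in CP+EVs members, below T cells (9080 CPM) and above fibroblasts (1542 CPM). In CP they summed to 2697 CPM in members, 4037 CPM in T cells and 1065 CPM in fibroblasts. H2-Ab1 stood at 1132 CPM in CP+EVs members and 2213 CPM in CP+EVs T cells. Whether MHC class II RNA in members is background was not tested.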
